A study of Mus musculus with 6 samples.

Results

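The amino acid transporters described here are 10 genes, Slc7a5, Slc3a2, Slc7a11, Slc7a1, Slc7a6, Slc1a4, Slc1a5, Slc38a1, Slc38a2 and Slc7a7, which encode carriers, or carrier subunits, that bring amino acids across the cell membrane. They were chosen by name, and their probes were found by matching each probe's accession to RefSeq, which gave 21 probes among the 41157 usable probes and 10 of the 18209 genes that could be named. The probes of a gene are numbered from the brightest.

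RNA of femur marrow from ISAM mice was hybridised to one-colour expression arrays, 1 array for each of 6 samples, to ask which genes respond to erythropoietin in marrow. The treated samples were 3 replicates taken 6 h after an intraperitoneal injection of recombinant human erythropoietin (rHuEPO) at 3000 U/kg body weight. The control arm was made of 2 replicates that had been given phosphate-buffered saline (PBS) 6 h before, and of 1 sample left untreated. All samples, the control ones too, came from 10-week-old males of mixed strain with the ISAM genotype, Epo-/-::3.3K-Epo3'-Tg458, a deletion of the Epo gene combined with an Epo transgene that leaves adult mice short of the hormone and anemic. No wild-type marrow was analysed here, so each comparison is between samples of anemic marrow. The labels number the samples but name no separate animals, so each p-value reflects the spread among these samples alone, which may be technical.

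Dividing and hemoglobin-making cells need a steady supply of amino acids, and red cell precursors in the marrow take them up through membrane carriers. Slc7a5 and Slc3a2 are the light and the heavy chain of an exchanger for large neutral amino acids such as leucine, and leucine activates the growth kinase mTORC1. The same heavy chain, Slc3a2, pairs with the light chains Slc7a6, Slc7a7 and Slc7a11, while Slc1a4, Slc1a5, Slc38a1, Slc38a2 and Slc7a1 work without it. Several of these genes are known targets of ATF4, a transcription factor that is translated when amino acids or heme run short.

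Values are log2 of the processed spot signal minus the array's own 75th percentile, so that 0 stands for a probe as bright as that percentile. The array's 75th percentile signal ran from 220.7 to 264, no spot was saturated, and the share of gene spots well above background was 46.2% to 46.6% for rHuEPO and 48.6% to 50.5% for the controls. The number of arrays limits the precision. Slide 1 held rHuEPO replicate 1 and the untreated sample, and slide 2 held the other 4 arrays. As a check of the treatment, Erfe, the erythroid hormone that lowers hepcidin, was well above background on all 3 rHuEPO arrays and on 0 of the 3 control arrays. Cish, an inhibitor induced by STAT5, was 4.16 ± 0.30 higher on the log2 scale (SE, n = 3 against 3; adjusted p = 0.0116, limma). The red cell markers fixed as a list were present: 14 of 16 were tested and the other 2 had no matched probe, with a mean log2 value of 4.14 to 4.44 on the rHuEPO arrays, 3.58 and 4.18 on the PBS arrays and 4.02 on the untreated array. PBS replicate 1 stood apart from the other arrays in its cell markers. Its B and plasma cell list, 9 of 10 markers tested, had a mean of 0.354, against 1.25 to 1.77 on the rHuEPO arrays, 2.34 on PBS replicate 2 and 2.13 on the untreated array, and its neutrophil list had the highest mean, 7.10. On rHuEPO replicate 1 the megakaryocyte list, 7 of 7 markers tested, had a mean of 2.15, against 3.43 to 4.31 on the other arrays.

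None of the carriers passed the test, in either direction. Of the 21 probes, 16 probes of 8 genes were well above background on 3 or more of the arrays and were tested, and 0 of these 16 were called at an adjusted p of 0.05 (limma, Benjamini-Hochberg over 19588 probes). Over all tested probes 11 were called higher, or 0.0562%, and 0 were called lower, so that a count of 0 among 16 lies at the background. At gene level 0 of the 8 tested carriers were called, against 10 of 14851 genes, or 0.0673%. With slide as a block the carriers again gave 0 calls, against 13 probes or 0.0664% of all, and the smallest adjusted p among them was 0.33. The remaining 5 probes, all those of Slc7a11 and Slc1a4, were too dim to be tested.

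The measured changes were small and mostly above 0. The change, rHuEPO minus control, was above 0 for 12 of the 16 tested probes and below 0 for the other 4, and counted as 1 probe per gene it was above 0 for 6 of 8 genes, against 47.3% of all 14851 genes. The median over the 8 genes was 0.18, set against -0.015 over all genes. It was 0.20 within slide 1 and 0.17 within slide 2, but 0.31 without rHuEPO replicate 3, 0.32 with the replicate block and 0.51 with normexp on the median signals. The signs of single probes were not stable to the background correction: with normexp on the median signals 9 of the 16 probes had the other sign. Of the 16 probes, 15 were well above background on all 6 arrays, so the filter did not pick them for their direction. The exception was Slc7a6 probe 2.

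**Figure D1:**
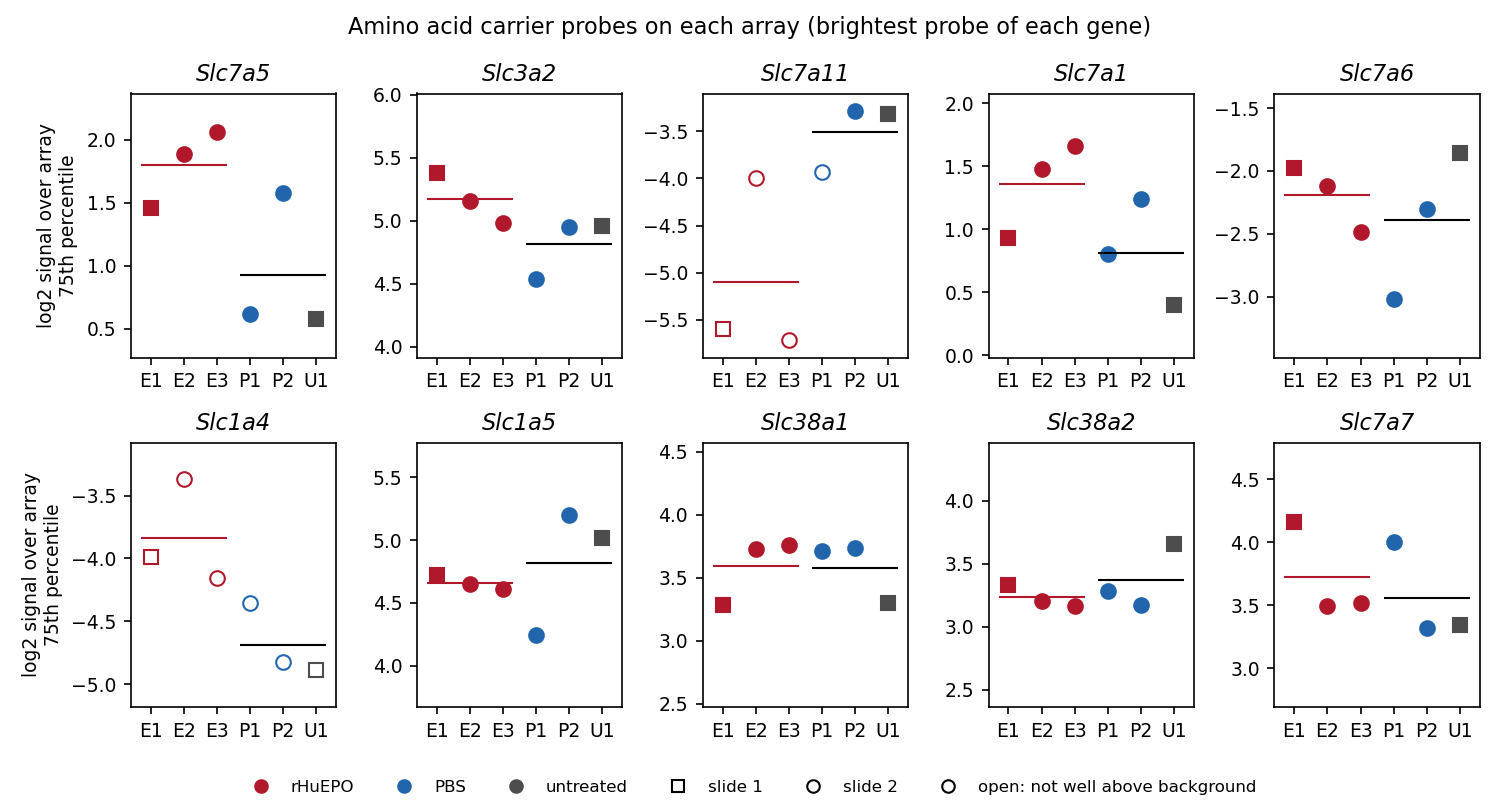
The brightest probe of each of the 10 carriers on each of the 6 arrays, as log2 signal minus the array's 75th percentile (vertical axis), for rHuEPO (E1 to E3), PBS (P1, P2) and untreated (U1) samples; bars are the means of the 3 rHuEPO and the 3 control arrays, squares are slide 1, circles are slide 2, and open symbols were not well above background. In the panels with filled symbols only, Slc3a2 alone has all 3 rHuEPO arrays above all 3 control arrays, while in Slc7a5 PBS replicate 2 (1.58) lies above rHuEPO replicate 1 (1.46).

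Slc7a5, the light chain that carries leucine and other large neutral amino acids, had the largest change among the tested carriers. Its single probe, on an mRNA from chromosome 8, read 1.46, 1.89 and 2.06 on the rHuEPO arrays, 0.61 and 1.58 on the PBS arrays and 0.58 on the untreated array. The 2 rHuEPO arrays of slide 2 were the highest of all, PBS replicate 1 and the untreated array were low, and the groups overlapped because PBS replicate 2 lay above rHuEPO replicate 1. The group means were 1.80 ± 0.31 with rHuEPO and 0.92 ± 0.57 in controls (SD, n = 3 each). The change was 0.88 ± 0.32 (SE; 95% interval 0.13 to 1.62), a ratio of 1.84, with an adjusted p of 1 by limma. Its unadjusted p of 0.0271 was the smallest among the carriers, and 453 probes, or 2.31% of all tested, were higher at an unadjusted p under 0.05. The 1 array of each arm on slide 1 differed by 0.88, as did the 2 against 2 arrays on slide 2, and the slide block gave an adjusted p of 0.337 (limma). At unadjusted p under 0.05 that fit had 1111 probes higher, or 5.67% of all. In marrow as a whole, more signal per cell and more cells that carry the mRNA cannot be told apart.

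The vehicle comparison of Slc7a5 rested on 1 array. Against PBS alone the change was 0.70 ± 0.34 (SE, 3 against 2 arrays; adjusted p = 0.999, limma). Without PBS replicate 1 it was 0.22, and without PBS replicate 2 it was 1.19. Both PBS arrays were on slide 2, and with slide as a block the change against PBS was 0.88 ± 0.35 (adjusted p = 0.768, limma). PBS replicate 1 is also the array with the lowest red cell and B cell marker means given above, and their part in the Slc7a5 values was not tested. The summed signal of the 14 red cell markers, dominated by globin, was 2098 to 2467 times the 75th percentile on the rHuEPO arrays, 2105 and 2306 on the PBS arrays and 2396 on the untreated array.

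Slc3a2, the heavy chain that takes Slc7a5 and its relatives to the cell surface, was the only tested carrier with a probe whose groups did not overlap. Probe 1 read 5.38, 5.16 and 4.98 on the rHuEPO arrays, 4.54 and 4.95 on the PBS arrays and 4.96 on the untreated array. All 3 rHuEPO arrays were above all 3 control arrays, but rHuEPO replicate 3 exceeded the untreated array by little. That is 1 of the 16 tested carrier probes, while 974 probes, or 4.97% of all tested, were separated in this way. The change was 0.36 ± 0.21 (SE; 95% interval -0.12 to 0.84; adjusted p = 1, limma), with 0.42 within slide 1 and 0.32 within slide 2. Without PBS replicate 1, the lowest array, it was 0.22.

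Slc3a2 probe 2 was far dimmer and overlapped. It read -0.95, -1.68 and -1.46 on the rHuEPO arrays, -2.03 and -2.27 on the PBS arrays and -1.33 on the untreated array. Both PBS arrays were below all rHuEPO arrays, whereas the untreated array lay among the rHuEPO arrays. Against PBS its change was 0.79 ± 0.27 (SE; unadjusted p = 0.0251, adjusted p = 0.999, limma), and 359 probes, or 1.83% of all tested, were higher than PBS at an unadjusted p under 0.05. Against all controls it was 0.51 ± 0.31, and with normexp on the median signals it turned to -0.14. With slide as a block the change against PBS was 0.58 ± 0.20 (adjusted p = 0.75, limma). Both Slc3a2 probes, and no other tested carrier probe, had every rHuEPO array above both PBS arrays, against 1528 probes or 7.8% of all tested. Across the 6 arrays the 2 probes had a correlation of 0.673. The heavy and light chain, Slc3a2 probe 1 and Slc7a5, had a correlation of 0.538 over the same arrays, a description of 6 points that share slide and depth.

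**Figure D2:**
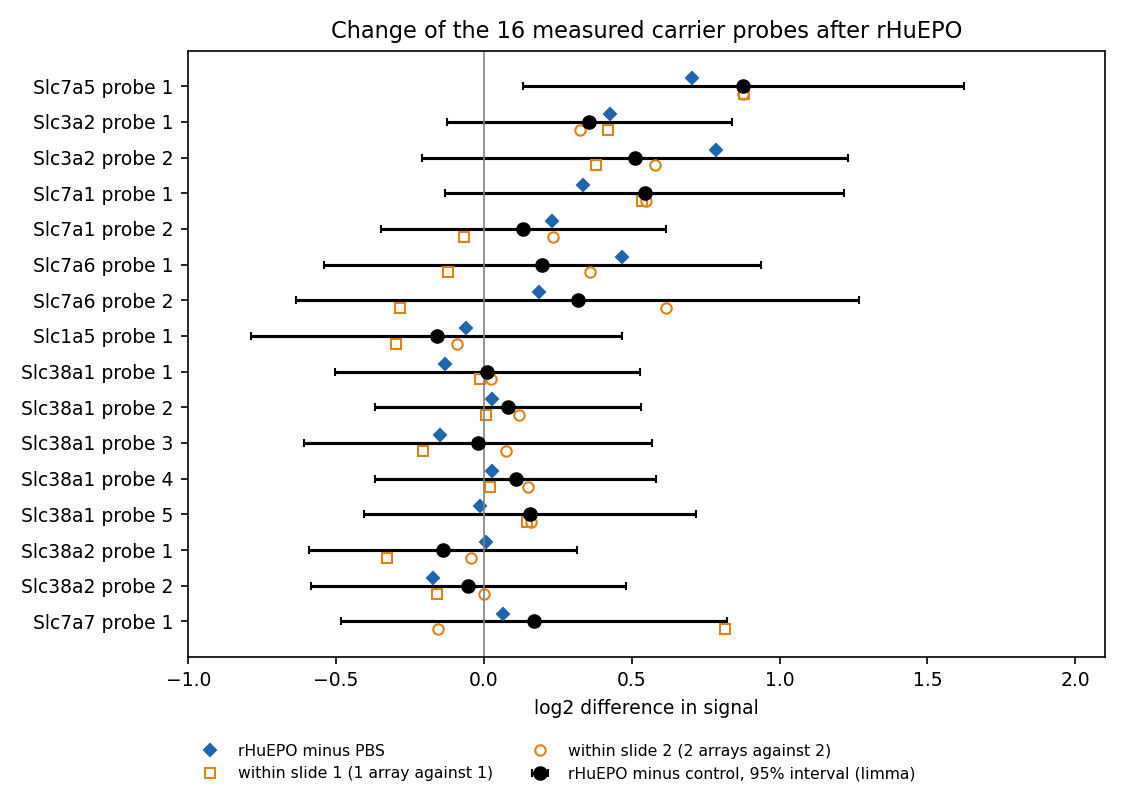
Changes of the 16 tested carrier probes (rows, numbered by brightness within a gene) in log2 units; black points are rHuEPO minus control with the 95% interval from limma, blue diamonds are rHuEPO minus PBS, and open squares and circles are the changes within slide 1 and within slide 2. The interval of Slc7a5 (0.13 to 1.62) is the only one that lies wholly above 0, and the 2 slides give Slc7a7 changes of 0.82 and -0.15.

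By the rule for naming genes alike in pattern, the 5 named genes whose log2 values followed those of Slc7a5 most closely among 11208 were Dimt1, Grwd1, Ddit3, Nop2 and Fkbp4, with correlations of 0.992 to 0.996 over the 6 arrays. Dimt1 is an rRNA methyltransferase and Nop2 a nucleolar one, Grwd1 is a factor in ribosome assembly, Ddit3 is a stress-induced transcription factor, and Fkbp4 is a co-chaperone. Dimt1, the closest, read 1.12, 1.58 and 1.63 on the rHuEPO arrays, 0.56 and 1.26 on the PBS arrays and 0.51 on the untreated array. Its order of arrays is that of Slc7a5, with PBS replicate 2 above rHuEPO replicate 1. None of the 5 passed the test: their changes ran from 0.29 ± 0.18 for Ddit3 to 0.83 ± 0.30 for Grwd1, and the smallest adjusted p was 0.89 (limma). A search over 11208 genes on 6 arrays picks high correlations, so these are a description. Among the carriers, Slc7a1 was the most like Slc7a5, with a correlation of 0.938.

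**Figure D3:**
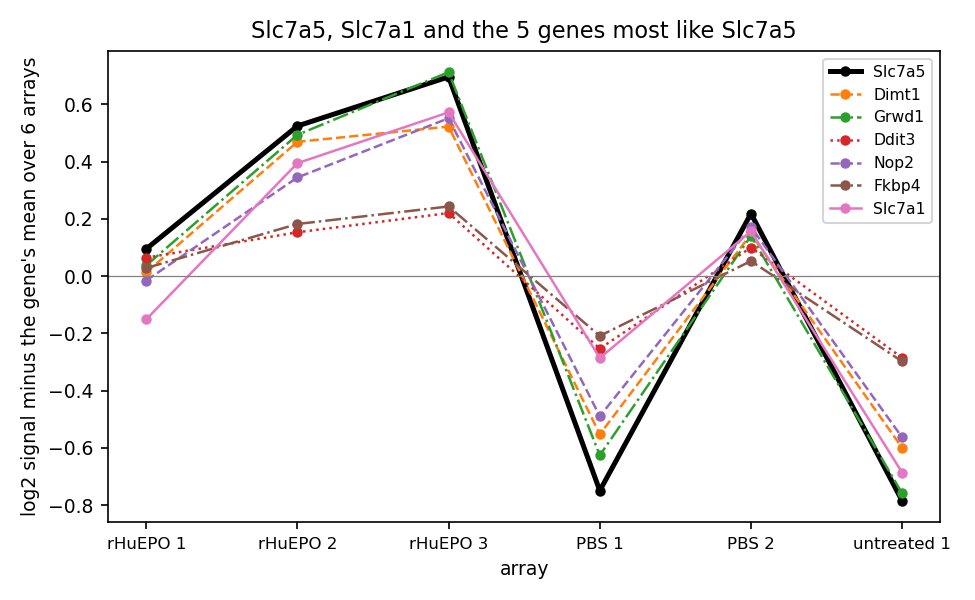
Log2 signal of Slc7a5, the 5 named genes most like it and Slc7a1 on each array, each with its own mean over the 6 arrays taken off (vertical axis, log2 units). All 7 lines are low on PBS replicate 1 and on the untreated array, and PBS replicate 2 lies above rHuEPO replicate 1 in each.

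The carriers of positively charged amino acids showed no change that passed the test. Slc7a1, the main uptake carrier for arginine and lysine, read 0.93, 1.48 and 1.66 with probe 1 on the rHuEPO arrays, 0.80 and 1.24 on the PBS arrays and 0.40 on the untreated array. The highest readings were the rHuEPO arrays of slide 2 and the lowest was the untreated array, while rHuEPO replicate 1 lay below PBS replicate 2. The change was 0.54 ± 0.29 (SE; 95% interval -0.13 to 1.22; adjusted p = 1, limma), and it was 0.54 within slide 1 and 0.55 within slide 2. Against PBS alone it was 0.34 ± 0.29, and 0.12 without PBS replicate 1. With slide as a block the change against PBS was 0.55 ± 0.23 (adjusted p = 0.769, limma). Probe 2 of the gene, which read between -3.53 and -2.93 on the 6 arrays, gave 0.13 ± 0.21, and -0.49 with normexp on the median signals. The 2 probes did not follow each other, with a correlation of -0.233.

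Slc7a6, which pairs with Slc3a2 and exchanges lysine or arginine for neutral amino acids and sodium, was dim. Probe 1 read -1.98, -2.12 and -2.48 on the rHuEPO arrays, -3.01 and -2.30 on the PBS arrays and -1.85 on the untreated array, so the highest and the lowest array were both controls. The change was 0.20 ± 0.31 (SE; adjusted p = 1, limma), -0.12 within slide 1 and 0.36 within slide 2, and -0.41 with normexp on the median signals. Probe 2 was well above background on 2 rHuEPO arrays and 1 control array and gave 0.32 ± 0.41, with -0.28 within slide 1 and 0.62 within slide 2. It was 0.75 without rHuEPO replicate 1, 0.57 without PBS replicate 2 and 0.025 without rHuEPO replicate 2, and -0.36 with normexp on the median signals.

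Slc7a7, the exchanger for positively charged amino acids in gut, kidney and macrophages, had 1 high array in each arm. Its probe read 4.16, 3.49 and 3.52 on the rHuEPO arrays, 4.0 and 3.32 on the PBS arrays and 3.34 on the untreated array. rHuEPO replicate 1, on slide 1, and PBS replicate 1, on slide 2, were the high arrays, and the other 4 lay close together. The change of 0.17 ± 0.28 (SE; adjusted p = 1, limma) was 0.82 within slide 1 and -0.15 within slide 2, and without rHuEPO replicate 1 it was -0.048. The monocyte and macrophage list, 14 of 15 markers tested, had a mean log2 value of 1.48 to 1.96 on the rHuEPO arrays, 1.42 and 1.64 on the PBS arrays and 1.36 on the untreated array. Its summed signal was 409.6 to 427.3 times the 75th percentile on the rHuEPO arrays, 555.1 and 383.4 on the PBS arrays and 376.0 on the untreated array. Its part in the Slc7a7 values was not tested.

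The carriers of glutamine and other small neutral amino acids had intervals on both sides of 0. Slc1a5, which exchanges glutamine for other neutral amino acids, read 4.72, 4.65 and 4.61 on the rHuEPO arrays, 4.25 and 5.20 on the PBS arrays and 5.02 on the untreated array. The rHuEPO arrays lay almost together and inside the range of the controls, with PBS replicate 1 below and the other controls above them. The SD was 0.054 with rHuEPO and 0.50 in controls (n = 3 each). The change was -0.16 ± 0.27 (SE; 95% interval -0.79 to 0.47; adjusted p = 1, limma). It was -0.45 without PBS replicate 1 and 0.028 without PBS replicate 2, and 0.38 with normexp on the median signals.

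Slc38a1, a sodium-coupled glutamine importer, had 5 tested probes. The brightest read 3.28, 3.73 and 3.76 on the rHuEPO arrays, 3.71 and 3.73 on the PBS arrays and 3.30 on the untreated array. The arrays of slide 1, 1 from each arm, were low and the 4 arrays of slide 2 were alike. The change was 0.012 ± 0.22 (SE; 95% interval -0.50 to 0.53; adjusted p = 1, limma). The 5 probes gave changes of -0.019 to 0.16 and followed each other across the arrays, with correlations of 0.688 to 0.975. An interval of this width leaves room for changes of about the size measured for Slc3a2.

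Slc38a2, the related importer that is induced when amino acids are scarce, read 3.33, 3.21 and 3.16 with probe 1 on the rHuEPO arrays, 3.28 and 3.18 on the PBS arrays and 3.66 on the untreated array. The untreated array was the highest and the 5 injected ones lay close together. The change was -0.14 ± 0.19 against all controls and 0.0056 ± 0.20 against PBS alone (SE; adjusted p = 1 and 0.999, limma). With normexp on the median signals the change against all controls was 0.32. Probe 2 gave -0.052 ± 0.23, and the correlation between the 2 probes was -0.564.

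Slc7a11, the light chain that imports cystine for glutathione synthesis in exchange for glutamate, lay at the floor of the array. The brightest of its 3 probes read -5.60, -3.99 and -5.72 on the rHuEPO arrays, -3.93 and -3.29 on the PBS arrays and -3.31 on the untreated array. It was well above background on 0 of 3 rHuEPO arrays and on 2 of 3 control arrays, PBS replicate 2 and the untreated one. Every rHuEPO reading was below every control reading, but the rHuEPO readings lie below the lowest signal that counted as well above background. Among the tested probes 953 or 4.87% were separated in this way, a share that does not cover probes too dim to test. No fold can be given. The other 2 probes were not well above background on any array and read between -5.61 and -4.22, with overlap between rHuEPO and control arrays in both. The negative control spots, a measure of the floor, had median signals between 4.73 and 5.51 with rHuEPO, against 3.74 to 4.03 in the controls. The part of the floor in these readings was not tested.

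Slc1a4, an exchanger of serine, alanine and cysteine, was equally dim and pointed the other way. Probe 1 read -3.99, -3.37 and -4.16 on the rHuEPO arrays, -4.35 and -4.82 on the PBS arrays and -4.89 on the untreated array, none of them well above background. Probe 2 read -4.14, -3.20 and -4.03 on the rHuEPO arrays, -4.55 and -4.54 on the PBS arrays and -5.39 on the untreated array, and only rHuEPO replicate 2 was well above background. In both probes every rHuEPO array was above every control array, and the negative control spots were brighter on the rHuEPO arrays too, so that neither a fold nor a test is given. Of the tested probes 974 or 4.97% were separated upwards, but no share was taken over probes too dim to test. With no filter on dim probes the median change over all probes was 0.092, against -0.014 over the tested ones.

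Slc7a11 and Slc1a4 are known ATF4 targets, and their promoters are shown for the element by which ATF4 binds. RefSeq promoter windows (GRCm38.p6, 250 bases before to 50 after an annotated start) were on hand for 7 of the 10 carriers, 13 windows in all. The letters TGATGNAAN, the ATF4 response element, were searched on both strands. They were found in windows of 3 of the 7 carriers, Slc7a11, Slc1a4 and Slc7a7, and in those of 4.5% of 27025 genes. Over all 32851 windows the share was 3.95%. Carriers and all genes were not matched for the number of windows per gene. The stretches below read along the gene's strand, the minus strand in each case, with the match in capitals; the first Slc7a11 match and that of Slc1a4 are the element read on the opposite strand.
Slc7a11 chr3:50443643-50443671: acctggagaaTTTGCATCAtcatgcagcc
Slc7a11 chr3:50443661-50443689: ctcatgtggcTGATGCAAAcctggagaat
Slc1a4 chr11:20332700-20332728: tgcctcctgcGTTGCATCAtctccagcct
Slc7a7 chr14:54417927-54417955: acctagaagcTGATGCAACagcttccccg
Slc7a7 chr14:54418067-54418095: cgcttgggctTGATGAAAGgttcactggg

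The matches of Slc7a11 begin at -48 and -66 from its start and that of Slc1a4 at -5, while those of Slc7a7 begin at -1 and -141 from one of its starts. The 2 stretches of Slc7a11 overlap at their ends and their capitals do not. Slc7a11 and Slc1a4, which both hold the element, read in opposite directions after rHuEPO at the floor of the array, and Slc7a7 had 1 high array in each arm, as given above. Of the other motifs, TGACNNNGC, bound by NRF2, was in windows of Slc7a1, Slc7a6 and Slc38a2 (14.0% of all genes), TTCNNNGAA, bound by STAT factors, in those of Slc7a11 and Slc7a1 (9.55%), AGATAA, bound by GATA factors, in that of Slc7a7 (12.7%), and CACGTG, bound by MYC, in none of the 7 (8.09%). These are matches of letters in a window and say nothing of binding.

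The untreated sample, counted as a control by the study's design, differed from the PBS arrays in several of these values. It was on slide 1 and both PBS arrays were on slide 2, so this difference holds that of the slides too. Untreated minus PBS gave -0.52 ± 0.46 for Slc7a5, -0.62 ± 0.39 for Slc7a1 probe 1, 0.82 ± 0.37 for Slc3a2 probe 2, 0.80 ± 0.39 for Slc7a6 probe 1 and 0.43 ± 0.26 for Slc38a2 probe 1 (SE, 1 array against 2, with the single array assumed to vary like the others). The other tested probe had the other sign for Slc7a1 (0.30), Slc7a6 (-0.40) and Slc38a2 (-0.36), and gave 0.21 for Slc3a2. In size these differences overlap with the changes after rHuEPO. With slide as a block, untreated minus PBS was -0.0045 for Slc7a5, 0.013 for Slc7a1 probe 1 and 0.20 for Slc3a2 probe 2. It was 0.48 for Slc7a6 probe 1 and 0.28 for Slc38a2 probe 1. None of the tested carrier probes was called in this comparison, in which 0 probes of all those tested were called higher or lower by limma, and in which 360 probes were higher and 690 lower before adjustment (p under 0.05). Against PBS alone 0 of the 16 carrier probes were called after rHuEPO, where 4 probes or 0.0204% of all tested were, and the median over the 8 genes was 0.20, against -0.059 over all genes.

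The other carriers at the cell surface were mostly too dim to follow. Of 38 listed genes 12 were tested, 23 were dim and 3 had no matched probe. None of the 12 was called (limma), their median change was -0.015, and 6 were above 0. Slc6a9, the glycine carrier that supplies heme synthesis in red cell precursors, read 5.38, 5.66 and 5.77 on the rHuEPO arrays, 4.44 and 5.24 on the PBS arrays and 4.31 on the untreated array. All its rHuEPO readings were above all control readings, as were those of Slc16a10 and Slc43a1, so that 3 of 12 genes were separated upwards, against 744 or 5.01% of all genes, and 0 of 12 downwards, against 800 or 5.39%. The change of Slc6a9 was 0.94 ± 0.28 (SE; adjusted p = 0.903, limma). It was 0.43 ± 0.18 for Slc16a10, a carrier of aromatic amino acids, and 0.43 ± 0.21 for Slc43a1, a carrier of large neutral ones. Slc1a3, a glutamate carrier, gave 0.64 ± 0.35, Slc43a2, a relative of Slc43a1, -0.60 ± 0.39, and Slc6a6, the taurine carrier, -0.26 ± 0.32, with overlapping groups in all 3. Slc6a9 and the red cell markers both had higher means with rHuEPO, the 14 markers with a median change of 0.37 and 11 of 14 above 0, and the part of red cell content in the Slc6a9 values was not tested.

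Carriers of the lysosome and the mitochondrion gave 17 tested genes of 20, with 0 called, a median change of 0.085 and 9 above 0. The median had no settled sign: it was -0.060 against PBS alone, with 7 of 17 above 0, -0.082 without rHuEPO replicate 2 and 0.17 without rHuEPO replicate 1. Here 3 of 17 genes were separated downwards, against 800 or 5.39% of all genes, and 1 upwards, against 744 or 5.01%. Slc38a9, the lysosomal arginine sensor of mTORC1, read 1.10, 1.03 and 1.13 on the rHuEPO arrays, 1.42 and 1.64 on the PBS arrays and 1.63 on the untreated array. Its readings after rHuEPO lay below all controls, with a change of -0.48 ± 0.17 (SE; adjusted p = 0.977, limma). Slc25a38, the mitochondrial glycine carrier for heme synthesis, gave -0.40 ± 0.18 and Sfxn3, a relative of the serine carrier Sfxn1, -0.24 ± 0.17, both with all rHuEPO readings below the controls. Sfxn1 itself gave 0.44 ± 0.20, with all of them above.

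Genes around the carriers were described through 4 further lists, none of which had a called gene (limma). Of 32 targets of ATF4, 26 were tested, and 21 were above 0 with a median change of 0.26. Separated upwards were 6 of 26, against 744 or 5.01% of all genes, and 0 downwards, against 5.39%. Untreated minus PBS, which differ in slide too, had a median of -0.33 for this list, with 5 of 26 above 0. Against PBS alone the median after rHuEPO was 0.11, with 16 of 26 above 0. The median of rHuEPO minus control stayed between 0.11 and 0.47 over the alternatives. At an unadjusted p under 0.05 the count was 4 of 26, against 2.44% of all genes. Shmt2, the mitochondrial serine hydroxymethyltransferase, read 2.7, 2.77 and 3.24 on the rHuEPO arrays, 2.27 and 1.93 on the PBS arrays and 1.76 on the untreated array, a change of 0.92 ± 0.23 (SE; adjusted p = 0.732, limma). The groups did not overlap, nor did they for Mthfd2, a folate enzyme of the mitochondrion (1.11 ± 0.39), Aars, the alanyl-tRNA synthetase (0.62 ± 0.19), and Asns, the asparagine synthetase (0.46 ± 0.18). Slc7a11, Slc1a4, Slc7a5 and Slc3a2 are ATF4 targets as well and were kept out of this list.

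Of 18 genes for glutathione synthesis and cystine use, the fate of what Slc7a11 imports, all 18 were tested, with a median of 0.084 and 13 above 0. Against PBS alone, without the untreated array, the median was -0.0059 and 9 of 18 were above 0, and with normexp on the median signals the median was 0.44. Gss, the glutathione synthetase, read 1.21, 1.02 and 1.23 on the rHuEPO arrays, 0.53 and 0.29 on the PBS arrays and 0.10 on the untreated array. Its groups were well apart, with a change of 0.85 ± 0.19 (SE; adjusted p = 0.624, limma). Srxn1, the sulfiredoxin, gave 0.75 ± 0.17 and Txnrd1, a thioredoxin reductase, 0.60 ± 0.20, both separated, while Hmox1, the heme oxygenase, gave 0.42 ± 0.30 with overlap. Gss, Srxn1 and Txnrd1 were the 3 of 18 genes separated upwards, against 5.01% of all genes. Downwards it was 0 of 18, against 5.39%.

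The sensors of amino acids, 34 tested of 37, had a median of -0.035 with 13 above 0, but the median was 0.038 with median scaling, 0.34 with normexp on the median signals and between -0.064 and 0.036 when 1 array was left out. Eif2s1, the translation factor that the stress kinases phosphorylate, gave 0.66 ± 0.19 (SE; adjusted p = 0.865, limma), and Mios, a part of the GATOR complex, 0.33 ± 0.16. Gcn1, which helps activate the kinase GCN2, gave 0.25 ± 0.16, whereas Rragd, a Rag GTPase, gave -0.63 ± 0.34 with overlap. Eif2s1, Mios and Gcn1 were among the 4 of 34 sensor genes separated upwards, against 5.01% of all genes. Separated downwards were 0 of 34, against 5.39%. Enzymes that use glutamine, arginine and branched-chain amino acids, 20 tested of 22, had a median of 0.043 with 13 above 0. It was -0.0036 without rHuEPO replicate 3, 0.11 without PBS replicate 1 and 0.29 with normexp on the median signals. Cad, which starts pyrimidine synthesis from glutamine, gave 0.56 ± 0.20, Ppat, which starts purine synthesis, 0.59 ± 0.33, Odc1, which makes putrescine from ornithine, 0.43 ± 0.22, and Gmps, the GMP synthetase, 0.26 ± 0.16. Of these, Cad and Gmps were separated upwards, 2 of the 20 tested genes, against 5.01% of all genes. In this list 1 gene was separated downwards, against 5.39% of all genes. It was Gpt, an alanine aminotransferase (-0.22 ± 0.16), named here after its values were seen.

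**Figure D4:**
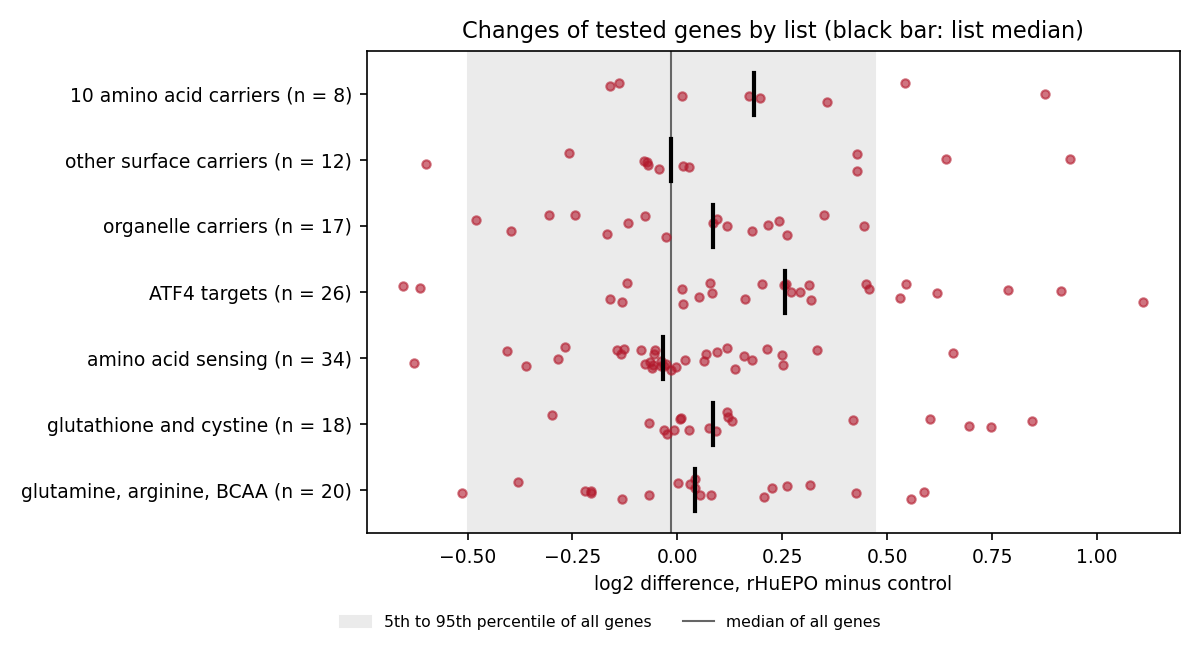
Changes of tested genes in log2 units, rHuEPO minus control (horizontal axis), for the 10 carriers, of which 8 were tested, and 6 further lists. Each point is a gene's brightest tested probe and the black bar is the list's median. The grey band runs from the 5th to the 95th percentile of all genes (-0.50 to 0.47) and the thin line is their median (BCAA, branched-chain amino acids). Slc7a5 (0.88) and Slc7a1 (0.54) lie beyond the band on the right.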

How the data were processed

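Per the labels' protocols, marrow RNA carried a Cy3 label on one-colour Agilent arrays. Per the file headers, the deposited intensity values come from Agilent Feature Extraction 10.7.3.1, and the processed signal used here is background-subtracted. A deposited table holds log2 values. How it was made is not stated; it matched the processed signals after scaling to the 75th percentile and centring on the probe median (slopes 0.9995 to 1.0004; column medians 0.117, 0.0112 and 0.0868 for rHuEPO, -0.0571 and -0.0978 for PBS and -0.104 for untreated).

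Processed signals were divided by the array's 75th percentile, taken over gene spots, and put on the log2 scale. Control spots (1639 per array) and outlier spots were dropped, repeated spots averaged, and 17 of 41174 probes lacked a value on some array. Other columns of the deposited files gave the flags, per the file headers. A probe was tested when 3 or more arrays had it well above background (19588 probes, 47.6%). Genes were named by matching unversioned accessions to a RefSeq table (64.8% of probes), and a gene was its brightest tested probe. The array's build differs from that of the promoter windows, so no gene coordinates are given.

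Tests used R 4.3.3 and limma 3.58.1, two-sided, with lmFit, eBayes and Benjamini-Hochberg adjustment over all tested probes (threshold 0.05): rHuEPO against the 3 controls in a 2-group fit, and rHuEPO or untreated against PBS in a 3-group fit. The fit was tested on simulated data. Correlations between arrays ran from 0.96 to 0.991, and no 2 arrays were taken for 1 sample.

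The carriers, lists and tests were chosen with earlier results of these data known. Named are all 10 carriers, a treatment check, the 4 genes of each further list with the smallest p (6 for the surface carriers), and the 5 genes most correlated with Slc7a5. The same rule was not applied to Slc7a11, which had no tested probe. Alternatives were other scalings, background correction, filters, the deposited table, variance models, array weights, slide and replicate blocks, probe summaries and leaving out each array. Normexp (offset 50) was planned on mean signals, or on median signals where that column is absent, and was run on the median.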

Additional observations from a re-analysis of the deposited data

How the results depend on the processing

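No carrier probe was called under any of the 20 alternatives to rHuEPO against control, the 19 to rHuEPO against PBS or the 17 to untreated against PBS. The changes of Slc7a5, Slc3a2 probe 1 and Slc7a1 probe 1 stayed above 0 in all of those run on them, at 0.62 to 1.21, 0.22 to 0.83 and 0.29 to 0.76 against control. Over all probes, the 11 calls against control were 1 with normexp on median signals (chosen after seeing that the files lack mean signals), 2 with no filter, 4 with a filter on all 6 arrays, 26 with array weights, 1 with the replicate block, 4 on slide 2 alone, 4 with PBS as the only control, and 2 to 7 without any 1 array. The 4 calls against PBS were 1 with normexp, 1 with no filter, 1 with the filter on all 6 arrays, 18 with array weights, 11 with the replicate block and 1 to 4 without 1 array; the 0 calls of untreated against PBS were 78 with no filter, 4 with array weights, 1 with the replicate block and 0 to 2 without 1 array. Fewer probes or arrays enter some of these fits; otherwise the cause was not tested.

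Some changes turned their sign, most of them small but among them 0.51 for Slc3a2 probe 2 and 0.32 for Slc7a6 probe 2. Against control, normexp gave -0.14 for Slc3a2 probe 2, -0.49 for Slc7a1 probe 2, -0.41 and -0.36 for Slc7a6, 0.38 for Slc1a5, 0.070 and -0.27 for Slc38a1 probes 3 and 5, and 0.32 and 0.049 for Slc38a2. Quantile scaling gave -0.043 for Slc38a1 probe 1. For Slc38a1 probe 3 and Slc38a2 probe 2, median scaling gave 0.055 and 0.021, array weights 0.039 and 0.098, and slide 2 alone 0.074 and 0.0010. Slide 2 alone gave -0.15 for Slc7a7. The replicate block gave -0.13, -0.043 and -0.043 for Slc38a1 probes 1, 2 and 4. PBS as the only control gave -0.13 and -0.014 for Slc38a1 probes 1 and 5 and 0.0056 for Slc38a2 probe 1. Against PBS, normexp gave -0.56 for Slc7a6, 0.72 for Slc1a5 and 0.48 for Slc38a1, array weights -0.025 for Slc38a2 and -0.14 for Slc7a7, the slide block and slide 2 alone 0.024, -0.044 and -0.15 for Slc38a1, Slc38a2 and Slc7a7, and the mean of probes -0.084 for Slc38a2. Without 1 array, against control, Slc7a6 probe 1 ran from -0.11 to 0.47, Slc1a5 from -0.45 to 0.028, Slc38a1 probes 1, 3 and 5 from -0.13 to 0.17, -0.16 to 0.20 and -0.014 to 0.33, Slc38a2 from -0.24 to 0.0056 and -0.17 to 0.12, and Slc7a7 from -0.048 to 0.39; against PBS, Slc1a5 ran from -0.54 to 0.41, Slc38a1 from -0.21 to 0.024, Slc38a2 from -0.047 to 0.058 and Slc7a7 from -0.27 to 0.40.

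Deviations of PBS and rHuEPO arrays of the same number from their group means had correlations of -0.0395 and -0.123. The deviations of the PBS replicates mirror each other, so these values cannot show whether the replicate numbers pair the samples. Signal over background limits Slc7a11 and Slc1a4, whose probes were tested only in the alternative with no filter on dim probes, where none was called.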
